A study of Mus musculus with 18 samples.

Results

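Translation initiation factors are the proteins that bring a ribosome to the start codon of an mRNA. The 53 genes described here were chosen from 37303 by name alone: every gene whose symbol begins with Eif and a digit from 1 to 6 was taken, except the eIF2 kinases, the eIF4E binding proteins and pseudogenes, and all 53 had an OK estimate in each of the 6 groups. The label was checked against the symbols. Of the 53, 6 are Argonaute genes of the microRNA machinery that carry older Eif2c names, so the counts below run over the other 47. Of these 47 initiation factor genes, 44 were above 3 FPKM, a read count scaled to transcript length and library size, in every group. The 3 below it were *Eif4e1b*, listed at 0 in all 6 groups, *Eif4e3*, a cap-binding protein at 1.44 to 2.64 FPKM, and *Eif5a2*, the minor eIF5A gene at 0.0665 to 0.151 FPKM.

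The samples were poly-A RNA of 18 livers from C57BL/6J mice in 6 groups of 3. WT mice, mice homozygous for a *Gcn2* deletion and mice homozygous for an *Atf4* deletion received 8 daily intraperitoneal injections of asparaginase (ASNase, 3 IU per gram body weight) or of phosphate buffered saline (PBS), and livers were collected 7.5 h after the last one. ASNase is a leukaemia drug that breaks down circulating asparagine and glutamine. The labels give ages of 8 to 16 weeks, while the protocol text gives an upper age of 12 weeks. Both deletions were in the whole body, so the liver of a knockout also met the effects of the deletion in other organs. Males and females were mixed: 1 of 3 mice was male in WT PBS, Gcn2-/- PBS and Gcn2-/- ASNase, and 2 of 3 were male in WT ASNase, Atf4-/- PBS and Atf4-/- ASNase. A comparison of a group with 1 male and a group with 2, such as WT ASNase with WT PBS, is also one of sex. The part of sex in such comparisons was not tested.

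Initiation begins when eIF2, loaded with GTP and the initiator tRNA, joins the small ribosomal subunit together with eIF1, eIF1A, eIF3 and eIF5. The eIF4F complex binds the mRNA cap and unwinds the leader, the small subunit scans to the start codon, and eIF2 leaves as a GDP form that eIF2B must recharge. Kinases such as GCN2, encoded by *Eif2ak4*, phosphorylate the alpha subunit of eIF2 when amino acids are scarce, which turns eIF2 into an inhibitor of eIF2B. General initiation then slows, while a few mRNAs, among them that of the transcription factor ATF4, are translated more. The alpha subunit is encoded by *Eif2s1* on chromosome 12 (78861819 to 78887010 of GRCm38, + strand). The stretch of its coding sequence around the phosphorylated serine is shown because this residue is where the deleted kinase acts. The capitals mark the serine codon, residue 51 of the mature protein and 52 when the first methionine is counted, in the GENCODE M21 transcript.

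*Eif2s1* serine codon: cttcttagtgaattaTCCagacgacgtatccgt

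Each gene has 1 deposited FPKM value per group, estimated from the 3 livers together, with the lower and upper bound of an interval. No value of a single liver was used, so no spread between mice, no SD and no p-value can be given, and no difference below has a replicate check. The bounds served as the error. Among the 44 factors the median distance from a value to its bound was between 49.0% and 50.6% of the value in the 6 groups, against 51.3% to 54.2% over all genes above 3 FPKM. Differences are given on the log2(FPKM + 0.1) scale. A gene was called when it was above 3 FPKM in either group, differed by over 1.5 on that scale and had intervals that did not overlap. A looser rule asked that the FPKM difference exceed the combined interval, which is the root of the summed squares of the facing half-widths. All 44 factors could be compared in each of 7 comparisons.

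The deleted genes were still measured in the groups labelled by them. *Eif2ak4* was at 2.31 FPKM in Gcn2-/- PBS and 2.96 in Gcn2-/- ASNase, against 2.19 to 3.14 in the other 4 groups, and did not separate them. *Atf4* was lower but not absent in its groups, at 32.3 FPKM in Atf4-/- PBS and 29.3 in Atf4-/- ASNase, against 50.4 to 68.1 elsewhere. The difference of *Atf4* between Atf4-/- ASNase and WT ASNase was -1.11, beyond the combined interval. The labels do not say which exons were removed, and a value over a whole gene is no check of a deletion of some of its exons. Groups are therefore named by their labels. The paper reports, from its own read densities, that an exon of *Gcn2* was missing in Gcn2-/- mice and *Atf4* in Atf4-/- mice. Hepatocyte genes were abundant in all 6 groups, with *Ttr*, a plasma thyroxine carrier, at 5130 FPKM in WT PBS and 854 in Atf4-/- ASNase, the highest and lowest groups. The defining hepatocyte gene *Alb* had no estimate. The 7 skeletal muscle markers summed, after PBS and ASNase, to 753 and 1070 FPKM in WT livers but to 5.75 and 8.72 FPKM where *Gcn2* was deleted and 59.3 and 121 FPKM where *Atf4* was. The 4 lung epithelium markers summed to 132 FPKM in WT PBS and to 0.723 to 2.05 in the other 5 groups. Muscle RNA thus moved with strain and lung RNA with the WT PBS group, and their part in the comparisons below was not tested. In bulk liver RNA, fewer cells of a type and less RNA per cell cannot be told apart.

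ASNase left the initiation factors of WT livers close to their PBS levels and was followed by higher levels of most of them in Atf4-/- livers. In WT livers 18 of the 44 factors were higher and 26 lower after ASNase, with a median difference of -0.07 and a range from -0.33 to 0.63. In Gcn2-/- livers 35 were higher and 9 lower, with a median of 0.19 and a range from -1.12 to 1.49. In Atf4-/- livers 41 were higher and 3 lower, with a median of 0.74, quartiles of 0.44 and 0.94, and a range from -0.13 to 2.10. Over all eligible genes the medians were -0.01, 0.02 and 0.08, and 49.0%, 51.5% and 53.8% of genes were higher after ASNase in the 3 strains in that order. The share of factors that were higher was thus 40.9% in WT, 79.5% in Gcn2-/- and 93.2% in Atf4-/- livers.

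**Figure D1:**
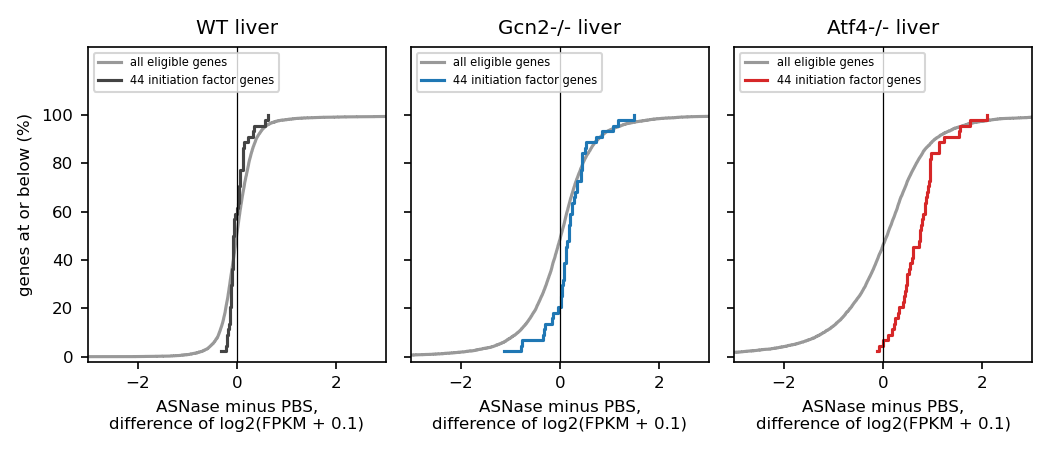
Cumulative percentage of genes (vertical axis, %) at or below a given ASNase minus PBS difference of log2(FPKM + 0.1) (horizontal axis) in WT, Gcn2-/- and Atf4-/- livers; the grey line is all eligible genes and the coloured line the 44 initiation factor genes. In Atf4-/- livers the coloured line lies to the right of the grey one over most of its course, with medians of 0.74 and 0.08, while in WT livers both lines cross near 0.

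Few factors went past either rule for a single gene. In WT livers 0 of 44 were called and 0 were beyond the combined interval, where 0.881% and 1.66% of all 9084 eligible genes were. In Gcn2-/- livers 0 were called, against 3.69% of genes, and 2 were beyond the combined interval (4.55%, against 8.81%), *Eif1a* being higher and *Eif4b* lower. *Eif1a* and *Eif2b3* were called in Atf4-/- livers (4.55%, against 7.37%), and these 2 with *Eif3c* and *Eif6* were beyond the combined interval (9.09%, against 14.8%), all higher. With median-ratio scaling, and likewise with a pseudocount of 1, 1 factor was called in Atf4-/- livers in place of 2, as *Eif2b3* came under the limit. The factors were therefore not called more often than genes at large. In the knockouts most of them shared a direction, at differences that were mostly within the interval of a single gene, and no test of this shared direction was made.

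**Figure D2:**
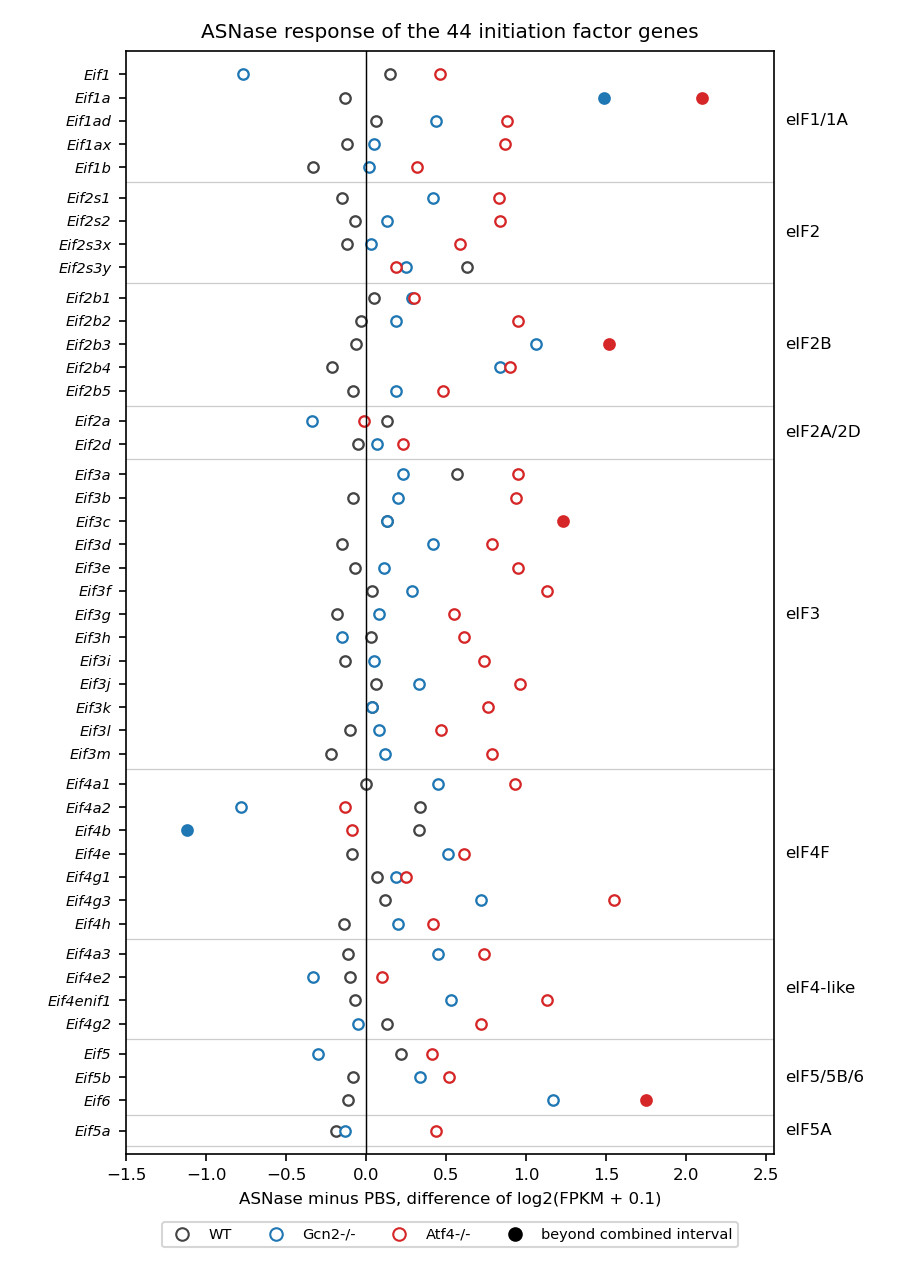
ASNase minus PBS difference of log2(FPKM + 0.1) (horizontal axis) for each of the 44 initiation factor genes (rows, grouped by complex) in WT (grey), Gcn2-/- (blue) and Atf4-/- (red) livers; filled points exceed the combined interval and open points do not. The red points lie to the right of 0 for 41 genes and furthest right for *Eif1a*, at 2.10, while *Eif4b* lies furthest left, at -1.12 in Gcn2-/- livers.

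Seen over all 6 groups, 36 of the 44 factors had their highest FPKM in Atf4-/- ASNase, and 21 had their lowest in Atf4-/- PBS. The summed FPKM of the 44 was 2600 after PBS and 2670 after ASNase in WT livers, 2840 and 2760 with *Gcn2* deleted, and 2350 and 3660 with *Atf4* deleted. As a share of all FPKM in the group this was 0.362%, 0.412%, 0.347%, 0.394%, 0.352% and 0.454%, in the same order. The share was higher after ASNase than after PBS in each strain, also in WT livers, where the total of all FPKM was 648000 after ASNase and 718000 after PBS. The summed factors of Gcn2-/- livers were lower after ASNase, and the total of all FPKM went from 819000 to 700000. The most frequent pattern was lower in WT and higher in both knockouts, which 24 factors showed. Another 11 were higher in all 3 strains, and 0 were lower in all 3.

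Among the scanning factors, *Eif1a* had the largest difference of all members. eIF1A opens the small subunit for scanning and helps to recognise the start codon. *Eif1a* (on chromosome 18) was at 28.4 FPKM after PBS and 26.0 after ASNase in WT livers, 28.5 and 80.2 with *Gcn2* deleted, and 26.2 and 113 with *Atf4* deleted. The 4 other groups lay between 26.0 and 28.5 FPKM, and the 2 knockout groups given ASNase stood above them. The interval of Atf4-/- ASNase (58.7 to 167) did not overlap that of Atf4-/- PBS (15.1 to 37.3), a difference of 2.10 or 4.30-fold. The interval of Gcn2-/- ASNase (40.2 to 120) just met that of Gcn2-/- PBS (16.3 to 40.7), a difference of 1.49 or 2.82-fold, which was beyond the combined interval but not called.

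The X-linked paralog *Eif1ax* encodes a near copy of eIF1A, and the coding sequences share 85.6% of their bases. *Eif1ax* was at 25.9 and 23.8 FPKM in WT livers (PBS and ASNase), 31.3 and 32.3 with *Gcn2* deleted, and 22.4 and 40.9 with *Atf4* deleted. Its groups overlapped throughout, since intervals reached down to 0 in 4 of them. *Eif1a* therefore made up 47.6% to 53.9% of the pair in 4 groups, and 71.3% in Gcn2-/- ASNase and 73.4% in Atf4-/- ASNase. Reads that fit both copies could have been divided between them by the counting step.

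*Eif1*, which guards start codon choice, was among the most abundant factors and did not follow *Eif1a*. Its FPKM after PBS and ASNase was 429 and 475 in WT livers, 498 and 291 with *Gcn2* deleted, and 310 and 425 with *Atf4* deleted. The Gcn2-/- ASNase value was the lowest, at a difference of -0.77 from Gcn2-/- PBS, but its interval (103 to 479) overlapped that of Gcn2-/- PBS (155 to 840). The paralog *Eif1b* stayed between 17.6 and 25.8 FPKM. *Eif1ad*, an eIF1A domain protein, lay between 7.07 FPKM in Atf4-/- PBS and 13.1 in Atf4-/- ASNase. All 5 genes of this set were higher after ASNase in Atf4-/- livers, with a median of 0.87, and the set's medians in WT and Gcn2-/- livers were -0.12 and 0.05.

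**Figure D3:**
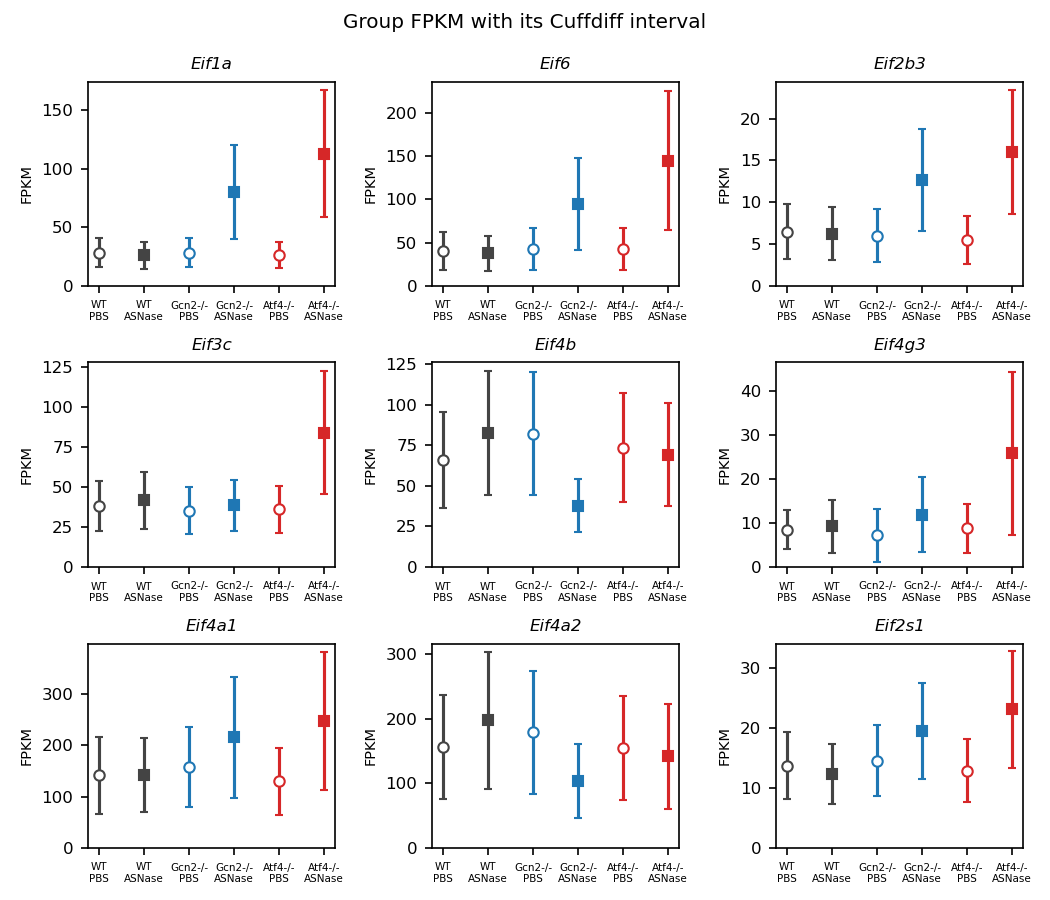
FPKM (vertical axis, linear from 0) in the 6 groups (horizontal axis; open circles PBS, filled squares ASNase) for 9 factors, with bars for the interval that Cuffdiff gave each group value. *Eif1a*, *Eif6* and *Eif2b3* are higher in both knockout groups given ASNase, *Eif3c* and *Eif4g3* in Atf4-/- ASNase, and *Eif4b* and *Eif4a2* are lowest in Gcn2-/- ASNase.

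The eIF2 genes, which encode the target of GCN2, were not called in any comparison. *Eif2s1* (alpha, the phosphorylated subunit) was at 13.7 FPKM after PBS and 12.3 after ASNase in WT livers, 14.5 and 19.5 with *Gcn2* deleted, and 12.9 and 23.1 with *Atf4* deleted. Its 2 highest groups were the knockouts given ASNase, and the interval of Atf4-/- ASNase (13.4 to 32.8) overlapped that of every other group. *Eif2s2* (beta) was at 27.9, 26.6, 28.9, 31.6, 20.5 and 36.8 FPKM in the same order. After ASNase *Eif2s1* differed by 0.83 and *Eif2s2* by 0.84 in Atf4-/- livers, and by 0.42 and 0.13 in Gcn2-/- livers, all within the combined interval.

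The gamma subunit, which binds the initiator tRNA, comes from an X-linked gene in both sexes and a Y-linked gene in males. *Eif2s3x* was at 33.9 and 31.2 FPKM in WT livers (PBS and ASNase), 38.3 and 39.1 with *Gcn2* deleted, and 29.0 and 43.8 with *Atf4* deleted. *Eif2s3y* was at 11.8, 18.3, 11.0, 13.1, 23.2 and 26.4 FPKM. Its 3 higher groups were the 3 with 2 males, and its 3 lower groups the 3 with 1 male. *Ddx3y*, a Y-linked helicase gene, followed the same split, with 5.62 to 6.20 FPKM in the groups with 1 male and 11.4 to 14.2 in those with 2. The *Eif2s3y* differences of 0.63 between WT ASNase and WT PBS and of 0.97 between Atf4-/- PBS and WT PBS are therefore also differences between groups with 2 males and 1 male, and the 2 cannot be told apart.

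The 5 subunit genes of eIF2B, the exchange factor that phosphorylated eIF2 blocks, were all higher after ASNase in both knockouts and showed little difference in WT livers. Their medians were -0.06 in WT, 0.29 in Gcn2-/- and 0.90 in Atf4-/- livers. *Eif2b3* (gamma subunit; chromosome 4, 117019402 to 117087306, + strand) was at 6.49 FPKM after PBS and 6.24 after ASNase in WT livers, 6.02 and 12.7 with *Gcn2* deleted, and 5.51 and 16.0 with *Atf4* deleted. The 4 other groups lay close together, and the knockouts given ASNase were the highest 2. In Atf4-/- livers the difference was 1.52 or 2.90-fold, with separate intervals (8.62 to 23.4 against 2.60 to 8.41), and it was just past the limit of 1.5. In Gcn2-/- livers it was 1.06, within the combined interval.

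*Eif2b4* (delta subunit), the most abundant of the 5, was at 21.8 and 18.9 FPKM in WT livers (PBS and ASNase), 19.2 and 34.4 with *Gcn2* deleted, and 16.8 and 31.5 with *Atf4* deleted. It had its highest value in Gcn2-/- ASNase, as did *Eif2b1* (alpha subunit, 14.7 to 20.4 FPKM). Its intervals were wide and overlapped, from 9.71 to 59.1 in Gcn2-/- ASNase and from 5.31 to 33.1 in Gcn2-/- PBS. *Eif2b2* and *Eif2b5*, the beta and epsilon subunits, were highest in Atf4-/- ASNase at 32.0 and 22.6 FPKM. In Gcn2-/- livers the 2 largest differences within the complex were 1.06 for *Eif2b3* and 0.84 for *Eif2b4*, and the other 3 were between 0.19 and 0.29.

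The 13 genes of eIF3, the scaffold that holds the other factors on the small subunit, had ASNase differences of 1 sign in Atf4-/- livers. After ASNase 13 of 13 were higher in Atf4-/- livers, between 0.47 and 1.23 with a median of 0.79. In Gcn2-/- livers 12 of 13 were higher, at a median of 0.12, and in WT livers 6 were higher and 7 lower, at a median of -0.07. The summed FPKM of the complex was 618 after PBS and 607 after ASNase in WT livers, 650 and 697 with *Gcn2* deleted, and 568 and 996 with *Atf4* deleted. Levels within the complex were unequal per length. *Eif3h* was the highest subunit and *Eif3j* the lowest in each group, 11.5-fold apart in WT PBS and 9.71-fold apart in Atf4-/- ASNase. The *Eif3j* row is *Eif3j1* in GENCODE, and its paralog *Eif3j2* was not among the members. How reads that fit both copies were counted was not tested.

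*Eif3c*, a core subunit, was at 38.2 FPKM after PBS and 41.8 after ASNase in WT livers, 35.1 and 38.5 with *Gcn2* deleted, and 36.0 and 84.2 with *Atf4* deleted. Atf4-/- ASNase stood alone above 5 groups that lay near each other. Its difference from Atf4-/- PBS was 1.23 or 2.34-fold, beyond the combined interval but not called, as its lower bound of 45.8 lay under the upper bound of 50.9 after PBS. *Eif3e* was at 63.0, 60.2, 71.0, 76.8, 60.6 and 117 FPKM in the same order, and was beyond the combined interval against WT ASNase (0.96) but not against Atf4-/- PBS (0.95). *Eif3f* differed by 1.13, from 35.6 to 77.8 FPKM, within its combined interval. *Eif3a*, the largest subunit and the scaffold's core, was higher after ASNase in WT livers too, at 27.0 FPKM in WT PBS and 40.3 in WT ASNase, a difference of 0.57 within the combined interval. *Eif3h* lay between 88.0 and 104 FPKM in 5 groups and at 136 in Atf4-/- ASNase.

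The cap-binding complex eIF4F and its partners were split between members. Of the 7 genes, 5 were higher after ASNase in both Gcn2-/- and Atf4-/- livers, and *Eif4a2* and *Eif4b* were lower in both. *Eif4b*, which stimulates the helicase eIF4A, was at 65.9 FPKM after PBS and 82.8 after ASNase in WT livers, 82.1 and 37.8 with *Gcn2* deleted, and 73.5 and 69.1 with *Atf4* deleted. Gcn2-/- ASNase was the lowest group, and the other 5 lay between 65.9 and 82.8. The difference of -1.12 from Gcn2-/- PBS was beyond the combined interval, and so was that of -1.13 from WT ASNase. The interval of Gcn2-/- ASNase (21.4 to 54.1) overlapped both that of Gcn2-/- PBS (44.2 to 120) and that of WT ASNase (44.5 to 121). Its difference in Atf4-/- livers was -0.09.

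The helicase eIF4A is made from a pair of genes, *Eif4a1* and *Eif4a2*, whose coding sequences share 78.0% of their bases. *Eif4a1* was at 141 and 141 FPKM in WT livers (PBS and ASNase), 157 and 215 with *Gcn2* deleted, and 130 and 247 with *Atf4* deleted. *Eif4a2* was at 157, 198, 179, 104, 155 and 142 FPKM. *Eif4a2* thus made up 52.7% to 58.4% of the pair in WT livers and in both knockouts given PBS, but 32.6% in Gcn2-/- ASNase and 36.4% in Atf4-/- ASNase. The *Eif4a2* intervals of Gcn2-/- ASNase (47.0 to 161) and Gcn2-/- PBS (84.3 to 274) overlapped. Neither gene was beyond its combined interval after ASNase in either knockout, and the change of share has no error of its own.

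**Figure D4:**
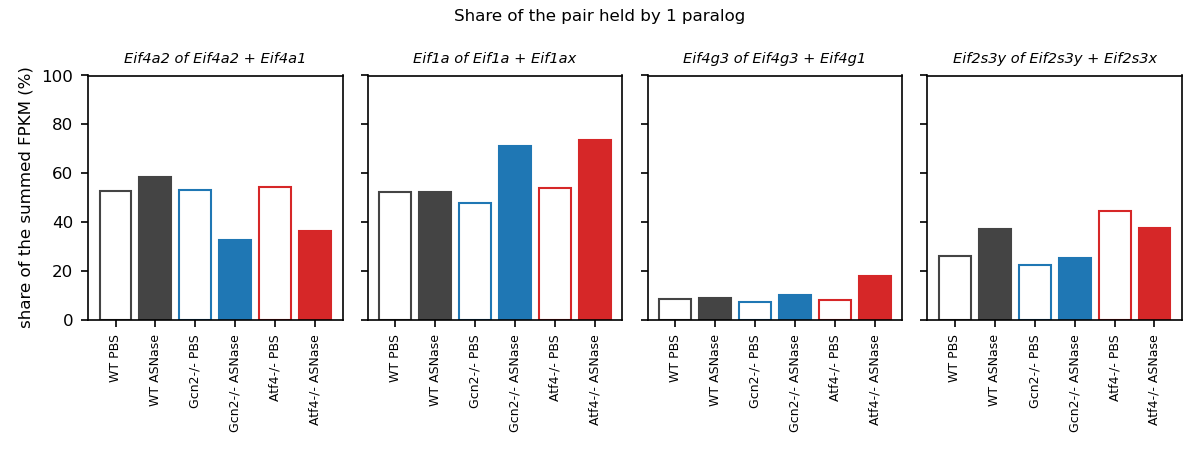
Share (vertical axis, %, from 0) of the summed FPKM of a pair of paralogs that the first named gene holds in each of the 6 groups (open bars PBS, filled bars ASNase), with no error bar since each group has 1 value. *Eif4a2* holds 32.6% and 36.4% of its pair and *Eif1a* reaches 71.3% and 73.4% in the 2 knockout groups given ASNase, while *Eif2s3y* is higher in the 3 groups with 2 males.

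The scaffold eIF4G, which bridges the cap and the ribosome, also has a pair of genes, with 62.1% of aligned coding bases identical. *Eif4g3* was at 8.48 FPKM after PBS and 9.21 after ASNase in WT livers, 7.20 and 11.9 with *Gcn2* deleted, and 8.75 and 25.8 with *Atf4* deleted. Atf4-/- ASNase was the highest by far, but its interval was wide (7.30 to 44.3) and covered most of that of Atf4-/- PBS (3.22 to 14.3), so the difference of 1.55 or 2.95-fold was not beyond the combined interval. *Eif4g1*, the major gene, lay between 90.2 and 120 FPKM, and *Eif4g3* made up 7.96% of the pair in Atf4-/- PBS and 17.7% in Atf4-/- ASNase. *Eif4e*, the cap-binding subunit itself, was at 17.1, 16.1, 17.2, 24.5, 16.5 and 25.2 FPKM, higher in both knockouts given ASNase at 0.51 and 0.61, within the combined interval. *Eif4h*, a second eIF4A cofactor, lay between 55.8 and 78.6 FPKM.

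Proteins related to eIF4F but acting outside it were led by *Eif4g2*, an eIF4G relative that lacks the cap-binding subunit's site. It was at 215 and 235 FPKM in WT livers (PBS and ASNase), 247 and 239 with *Gcn2* deleted, and 198 and 326 with *Atf4* deleted, with intervals that reached 0 in every group. *Eif4enif1*, a nuclear import carrier of eIF4E, was at 15.2, 14.4, 11.7, 17.0, 15.6 and 34.4 FPKM, and its intervals also reached 0. *Eif4a3*, a core part of the exon junction complex, was at 40.8 in Gcn2-/- ASNase and 40.4 in Atf4-/- ASNase and between 24.2 and 29.9 in the other 4 groups. *Eif4e2*, a cap-binding repressor, stayed between 30.7 and 38.5 FPKM. All 4 were higher after ASNase in Atf4-/- livers, at a median of 0.73.

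Of the late factors, *Eif6* followed *Eif1a*. eIF6 keeps the large ribosomal subunit from joining too early and takes part in its assembly. *Eif6* (chromosome 2, 155819832 to 155826925, - strand) was at 40.5 FPKM after PBS and 37.5 after ASNase in WT livers, 42.3 and 94.9 with *Gcn2* deleted, and 43.0 and 145 with *Atf4* deleted. Again 4 groups lay together, and the 2 knockout groups given ASNase stood above them. The difference in Atf4-/- livers was 1.75 or 3.37-fold and beyond the combined interval, but not called, since the intervals (64.8 to 226 and 18.7 to 67.4) overlapped. In Gcn2-/- livers it was 1.17, within the combined interval.

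*Eif5*, the GTPase activator of eIF2, was at 80.5 and 93.8 FPKM in WT livers (PBS and ASNase), 87.3 and 70.7 with *Gcn2* deleted, and 76.0 and 101 with *Atf4* deleted, and like *Eif1* it was lowest in Gcn2-/- ASNase. *Eif5b*, which joins the subunits, lay between 7.65 and 11.0 FPKM. *Eif5a*, which carries the modified residue hypusine and acts mainly in elongation, was at 303, 265, 324, 295, 263 and 357 FPKM, and its ASNase differences were -0.19 in WT, -0.13 in Gcn2-/- and 0.44 in Atf4-/- livers. The factors that can deliver the initiator tRNA without eIF2, *Eif2a* and *Eif2d*, varied little. *Eif2a* lay between 19.2 and 24.4 FPKM and *Eif2d* between 16.7 and 19.9, and after ASNase in Atf4-/- livers they differed by -0.01 and 0.23.

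The Argonaute genes under Eif2c names were low, and none was called or beyond the combined interval in any comparison. *Eif2c1* was the highest on average, at 4.31 and 4.60 FPKM in WT livers (PBS and ASNase), 4.09 and 2.85 with *Gcn2* deleted, and 4.80 and 2.79 with *Atf4* deleted. It was lowest in the 2 knockout groups given ASNase, but the other Argonaute rows did not all follow it. In Atf4-/- livers 3 of the 4 eligible rows were higher after ASNase and 1 lower, at a median of 0.69. In Gcn2-/- livers 1 of 2 was higher. *Eif2c3* was at 0.995 to 1.73 FPKM in 5 groups and 3.11 in Atf4-/- ASNase. *Eif2c2* had 2 rows under 2 identifiers, at 1.59 to 3.15 and 2.65 to 4.83 FPKM, both highest in Atf4-/- ASNase. *Eif2c4* was at most at 0.772 FPKM, and *Eif2c5* was listed at 0 in all groups.

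In mice given PBS the deletions went with small differences. Between Gcn2-/- PBS and WT PBS 30 of the 44 factors were higher (68.2%, against 60.1% of all genes), at a median of 0.06, the same as over all genes. Between Atf4-/- PBS and WT PBS 35 of 44 were lower and 9 higher (20.5%, against 50.4%), at a median of -0.11 against 0.00. Atf4-/- PBS held 2 males and WT PBS 1, so strain and sex cannot be told apart in that comparison. The lowest factor between Atf4-/- PBS and WT PBS was *Eif1*, at -0.47. In neither comparison was a factor called or beyond the combined interval, where 1.04% and 1.12% of genes were called and 2.09% and 2.08% were beyond it.

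Under ASNase the strains stood further apart. Between Gcn2-/- ASNase and WT ASNase 34 factors were higher (77.3%, against 53.6% of genes), at a median of 0.26 against 0.05. *Eif1a* was called at 1.62 or 3.09-fold (2.27% of the factors, against 4.41% of genes). *Eif1a* and *Eif6* were higher beyond the combined interval, where 3.89% of genes were, and *Eif4b* was lower beyond it, where 5.10% were. *Eif6* differed by 1.34, with intervals of 41.9 to 148 and 17.7 to 57.3 that overlapped, and *Eif4b* by -1.13. Between Atf4-/- ASNase and WT ASNase 40 were higher (90.9%, against 53.9%), at a median of 0.55 against 0.07. *Eif1a* (2.11, 4.34-fold) and *Eif6* (1.95, 3.87-fold) were called (4.55%, against 8.25%), and with *Eif2b3*, *Eif3c* and *Eif3e* they were beyond the combined interval (11.4%, against 15.4%). With median-ratio scaling 3 factors were beyond it in place of 5, as *Eif3c* and *Eif3e* came within it. The 4 lower factors included *Eif4a2*, at -0.48. These 2 comparisons share the WT ASNase group and are not independent.

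The strain responses themselves were set against each other, as the difference of the log2 responses over the combined error of the 4 values. The Atf4-/- response exceeded that of WT livers by more than this error for *Eif1a* (2.23), *Eif6* (1.86) and *Eif2b3* (1.58), where 9.66% of all genes were over their error, and the median difference over the 44 factors was 0.72. The Gcn2-/- response differed from WT by more than the error for *Eif1a* (1.62) and *Eif4b* (-1.45), where 6.34% of genes did, at a median of 0.23. Both use the same WT groups. Between the knockouts, which share no group, the signed Atf4-/- response was the higher for 43 of 44 factors, at a median difference of 0.58. For 0 of them was the difference over the error, where 5.61% of genes were over it. A higher signed response can be a smaller change, as for *Eif4b*, at -1.12 in Gcn2-/- and -0.09 in Atf4-/- livers. Of all genes eligible in both, 52.0% had the higher signed response in Atf4-/- livers.

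**Figure D5:**
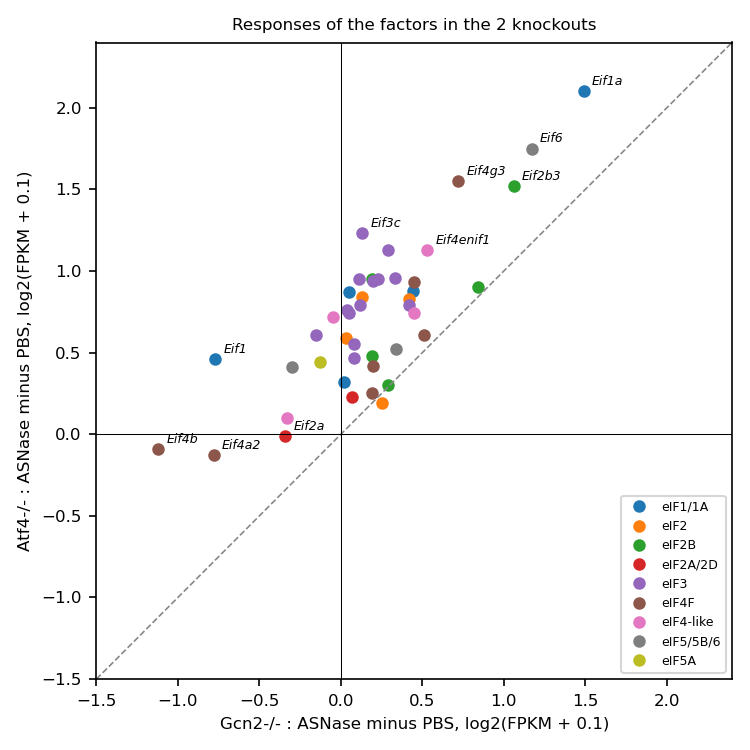
ASNase minus PBS difference of log2(FPKM + 0.1) of each of the 44 factors in Gcn2-/- livers (horizontal axis) and Atf4-/- livers (vertical axis), coloured by complex, with the line of equal response dashed. Points lie above the line for 43 of 44 genes, *Eif1a* is furthest to the upper right, and *Eif4b* and *Eif4a2* lie at the lower left.

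The order of the factors was similar in the 2 knockouts, by rank little more so than the order of all genes. Over the 44 genes the responses in Gcn2-/- and Atf4-/- livers had a Pearson r of 0.80 and a Spearman rho of 0.66, and over all 8911 genes eligible in both the values were 0.65 and 0.60. These are descriptions across genes, which are not independent of each other, and the 6 groups were scaled in 1 run.

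Promoters were searched for a pair of short motifs, since most factors shared a direction in the knockouts. Of the 47 genes, 38 matched RefSeq promoters of GRCm38.p6, from 250 bases before to 50 after each transcription start. Those with no entry in the table were *Eif1a*, *Eif2b3*, *Eif3e*, *Eif3h*, *Eif3i*, *Eif4e1b*, *Eif4e3*, *Eif4g2* and *Eif6*, so the counts do not cover them. The C/EBP-ATF response element that ATF4 binds (TGATGNAAN, both strands) was in 1 of the 38 (2.63%), *Eif2s3x*, against 4.50% of 27025 genes. The E-box CACGTG, a palindrome bound by MYC and related factors, was in 10 of the 38 (26.3%), against 8.09% of genes. These 10 were *Eif1b*, *Eif3a*, *Eif3f*, *Eif3k*, *Eif4a1*, *Eif4e*, *Eif4g1*, *Eif4h*, *Eif5a* and *Eif5a2*, and the 2 motifs do not overlap. A match is a run of letters and no evidence of binding. A gene was counted where any of its promoters held the motif, and not all promoters of *Eif4e* and *Eif5a* did. The E-box windows of 1 gene for each part of eIF4F are shown, as the cap-binding complex, with the *Eif2s3x* window for contrast. That of *Eif4e* lies before a later start, and its promoter at the first start (chr3:138525941-138526240) had no E-box. Capitals mark the motif, and each sequence reads 5′ to 3′ on the strand of its gene.

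*Eif4e* (chr3:138527188-138527225, +): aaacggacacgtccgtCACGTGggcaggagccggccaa
*Eif4g1* (chr16:20672657-20672694, +): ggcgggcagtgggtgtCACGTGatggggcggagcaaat
*Eif4a1* (chr11:69672591-69672628, -): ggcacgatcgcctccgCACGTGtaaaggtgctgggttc
*Eif2s3x* (chrX:94212724-94212764, -), motif on the opposite strand: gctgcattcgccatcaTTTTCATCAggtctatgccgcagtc

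Genes that act on these factors were taken from fixed lists. Of the 6 eIF2 kinases and phosphatase subunits, 0 were beyond the combined interval after ASNase in any strain. Over all genes the shares beyond it were 1.66% in WT, 8.81% in Gcn2-/- and 14.8% in Atf4-/- livers. *Ppp1r15a*, the inducible subunit that directs eIF2 dephosphorylation, was at 20.1 FPKM in Atf4-/- ASNase and 7.09 to 11.3 in the other groups. Its intervals reached 0 in every group. Of the 12 regulators of eIF4F, 1 was beyond the combined interval in Gcn2-/- livers and 1 in Atf4-/- livers. In Gcn2-/- livers this was *Eif4ebp3*, a repressor that sequesters eIF4E, at 56.5 FPKM after PBS and 230 after ASNase. It was also higher after ASNase in WT (29.6 and 65.1 FPKM) and Atf4-/- livers (61.6 and 154), within the combined interval. *Eif4ebp1*, its relative, was beyond it in Atf4-/- livers, at 30.9 and 64.3 FPKM. The medians of these 12 were 0.22, -0.14 and 0.28 in WT, Gcn2-/- and Atf4-/- livers. Of 10 other initiation and reinitiation factors, *Abce1*, a ribosome recycling factor, and *Bzw2*, an eIF5 mimic, were beyond it in Atf4-/- livers, and the 10 had medians of -0.03, 0.24 and 0.35.

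A list of elongation and termination factors had median ASNase differences of 0.09, 0.02 and 0.89 over 11 eligible genes in WT, Gcn2-/- and Atf4-/- livers. The list also holds genes that act on such factors, among them the kinase gene *Eef2k* and the hypusine enzyme genes *Dhps* and *Dohh*. Of the 11, *Eef1b2* and *Eef1g*, exchange factor subunits of eEF1A, were higher beyond the combined interval in Atf4-/- livers, where 6.03% of all genes were. The other 9 were within it. *Eef1b2* was at 364 FPKM in Atf4-/- PBS and 1460 in Atf4-/- ASNase. *Eef2k*, the kinase of elongation factor eEF2, was at 5.40 and 1.71 FPKM in the same groups, a difference of -1.61. *Eef1a1* was at 3130 and 7220 FPKM in Atf4-/- PBS and ASNase, and at 2800 in Gcn2-/- ASNase. Of the 9 stress genes listed as ATF4 targets 9, 7 and 8 could be compared in WT, Gcn2-/- and Atf4-/- livers. Higher beyond the combined interval were 1, 0 and 6 of them, where 1.08%, 3.80% and 6.03% of all genes were, and 1 was lower in Gcn2-/- livers. *Trib3*, a pseudokinase gene, was at 5.46, 19.5, 7.52, 3.39, 3.63 and 150 FPKM in WT PBS, WT ASNase, Gcn2-/- PBS, Gcn2-/- ASNase, Atf4-/- PBS and Atf4-/- ASNase.

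Other cell markers moved with ASNase too. The summed hepatocyte markers went from 22200 to 11900 FPKM between Gcn2-/- PBS and ASNase and from 18200 to 9920 in Atf4-/- livers, against 20600 and 17600 in WT. *Serpina1a*, a plasma protease inhibitor gene, had no estimate in Atf4-/- PBS and was at 1220 FPKM in Atf4-/- ASNase, so the Atf4-/- sums differ in their genes. *Tat*, a tyrosine-degrading enzyme gene, went the other way, from 613 to 1990 FPKM in Gcn2-/- and from 952 to 2010 in Atf4-/- livers. *Hnf4a*, a hepatocyte transcription factor gene, was at 149 and 145 FPKM in Gcn2-/- PBS and ASNase and 165 and 213 in the Atf4-/- groups. *Cps1*, a urea cycle enzyme gene, was at 754 and 779 FPKM in Gcn2-/- and 791 and 498 in Atf4-/- livers. The median differences of the list were -0.27 and -0.89. Of the hepatocyte markers 0 were beyond the combined interval after ASNase in any strain. The 6 macrophage and neutrophil markers that were found summed to 86.3 to 229 FPKM, with 139 and 165 in Gcn2-/- PBS and ASNase and 229 and 86.3 in the Atf4-/- groups. The myeloid genes *Itgam* (0.457 to 5.83 FPKM) and *Lyz2* (54.1 to 134) were higher beyond the combined interval in Gcn2-/- livers. *S100a9* (5.63 to 0.171 FPKM), a neutrophil gene, and *Clec4f* (67.3 to 15.9), a Kupffer cell gene, were lower beyond it in the same livers. In Atf4-/- livers *Itgam* was also higher beyond it (0.916 to 4.10) and *Clec4f* lower (102 to 30.1). *Lyz2* went the other way, lower beyond it in Atf4-/- (100 to 38.5) and WT livers (84.8 to 41.0). Over all genes 1.66%, 8.81% and 14.8% were beyond it in WT, Gcn2-/- and Atf4-/- livers. The 6 lymphocyte markers summed to 0.500 to 2.72 FPKM and the 4 proliferation markers to 0.810 to 7.40, both lowest in Atf4-/- ASNase. The 4 sex marker genes summed to 50.2 to 98.5 FPKM, a sum that mixes the female gene *Xist* with Y-linked genes. *Xist* was at 63.9 to 89.8 FPKM in the groups with 1 male and 33.9 to 50.0 in those with 2. Its intervals reached 0 in every group. The part of these shifts in the differences of the initiation factors was not tested.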

How the data were processed

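Liver poly-A RNA-Seq of 18 mice in 6 labelled groups of 3 was used. The authors aligned reads to mm10 with TopHat, assembled and merged transcripts, and estimated FPKM with Cuffdiff. The deposited FPKM table holds 37303 genes, with 1 value, 2 bounds and a status per gene and group, made from the 3 libraries together; 0 value columns lay outside the groups. Counts and depth per gene were not used here, so the bounds gave the precision. The linear models planned on log2 values of single libraries could not be fitted, and differences of log2(FPKM + 0.1) were set against the bounds instead, by 2 rules (Python 3.11.15, pandas 2.3.3, numpy 2.4.6). The rules were run on simulated data whose planted changes were larger than any difference of a factor. That run does not show how well they find changes of the size seen here. The log2(FPKM + 0.1) scale understates changes of low genes. The members, lists and rules were chosen with earlier results of these data known. Named were the most abundant gene of each complex and that with the largest ASNase difference, the eIF2 subunits, the genes past either rule, and their paralogs; further factors were named after their values were seen. Positions and coding sequences came from GENCODE M21 and promoters from RefSeq. Coding sequences were aligned with Biopython 1.88. Alternatives were another pseudocount, filter, limit and scaling, and leaving out *Eif2s3x* and *Eif2s3y*.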

Additional observations from a re-analysis of the deposited data

Results flagged for a closer look

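Differences between the strains in the ASNase response were taken up where they exceeded the combined error of the 4 values, a rule with no p-value, so that the differences themselves were not tested with replicates. The response of *Eif1a* in Gcn2-/- livers was larger than that in WT livers by 1.62 on the log2 scale, with an error of 1.29. That of *Eif4b* in Gcn2-/- livers was below the WT response by more than its error, at -1.45 with an error of 1.30. In Atf4-/- livers the response exceeded that of WT livers by 2.23 for *Eif1a* (error 1.27), by 1.58 for *Eif2b3* (error 1.43) and by 1.86 for *Eif6* (error 1.57). These 5 values all use the 2 WT groups, and 9.66% and 6.34% of all genes compared were over their error for Atf4-/- and Gcn2-/- livers.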

How the results depend on the processing

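No paired analysis was possible because the deposited table holds 1 value per group, and for the same reason no replicate could be left out. Of 145 alternative values of the 34 results over the group of factors, 142 stayed within the limits set for the same result, and 3 moved. The limits were a ratio of 1.5 for a count and a move of 0.10 for a median. With median-ratio scaling across the 6 groups, and likewise with a pseudocount of 1, 1 factor was called between Atf4-/- ASNase and Atf4-/- PBS in place of 2: *Eif2b3* came to 1.49 and 1.38, under the limit of 1.5. With median-ratio scaling, 3 factors in place of 5 were beyond the combined interval between Atf4-/- ASNase and WT ASNase, since *Eif3c* (0.99) and *Eif3e* (0.94) came within it; the factors of that scaling were between 0.980 and 1.02. Of 28 alternative values of single genes the other 26 kept their side of the combined-interval rule, and 0 of all values reversed. No median moved by more than 0.10. Counting the Argonaute genes with the factors, an alternative added after seeing the data, moved none of the values past those limits. The alternatives for the counts of factors that were higher were not planned either. The intervals, about 50% of a value, limit what a single factor can show.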
